A study of Mus musculus with 6 samples.

Results

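The genes described are the 4 opioid receptors Oprm1, Oprd1, Oprk1 and Oprl1 and the 3 opioid peptide precursors Penk, Pdyn and Pnoc, taken by symbol from the 48401 gene symbols of each library. All 7 were listed in every library. Bulk RNA sequencing was done on lumbar (L4/5) dorsal root ganglia (DRG), where the cell bodies of the body's sensory neurons lie. The tissue came from male C57BL/6J mice aged 8 weeks that had received a small interfering RNA intrathecally, into the fluid around the spinal cord. There were 3 libraries with siCLAP, which targets the lincRNA CLAP, named with itch sensation in the series title, and 3 with siNC, taken here as its control. All 6 libraries came from injected mice, so none shows an uninjected ganglion. The labels do not say how many mice gave a library, so a p-value here is set by the variation among libraries, which may be technical. CLAP itself was not analysed here, and its knockdown was not checked.

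Opioid receptors are G protein-coupled receptors that act through inhibitory G proteins, which lower cyclic AMP, close voltage-gated calcium channels and open potassium channels. In sensory neurons this reduces transmitter release and firing, which is the basis of peripheral and spinal opioid analgesia. Opioid signalling also bears on itch, since mu agonists given near the spinal cord cause itch and kappa agonists relieve it. The peptides are cut from precursor proteins, enkephalins mainly from Penk, dynorphins from Pdyn and nociceptin from Pnoc.

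Total expected counts were 25982046 to 39239131 in the siCLAP libraries and 21386768 to 46317735 in the siNC libraries, with 26004 to 27505 genes above 0. Neuronal markers were abundant, as the summed level of 9 pan-neuronal genes was 13942 to 14250 TPM (a transcript level scaled to gene length and library total) in siCLAP and 13193 to 13492 TPM in siNC. All siCLAP sums lay above all siNC sums. At an unadjusted p under 0.05 in edgeR, 5 of the 9 were higher and 1 lower in siCLAP, as were 8.22% and 8.75% of all tested genes. None of the 9 passed after adjustment, and the part of this difference in the opioid gene values was not tested. The transcripts were measured in whole ganglia, where fewer cells of a type and less RNA per cell cannot be told apart.

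The receptors fell into an abundant pair and a sparse pair. Oprl1, the nociceptin receptor, was the highest of the 7 genes with a mean of 18.7 TPM over the 6 libraries, above 56.7% of the 19141 tested genes. Oprd1, the delta receptor that binds enkephalins, averaged 14.7 TPM. Oprm1, the mu receptor that morphine acts on, averaged 3.04 TPM, above 18.6% of tested genes. Oprk1, the kappa receptor for dynorphins, averaged 1.25 TPM, above 3.55% of tested genes. Of the precursors only Penk stood near the abundant receptors, with a mean of 14.4 TPM. Pnoc and Pdyn averaged 0.305 and 0.111 TPM, below the mean of 1 TPM set for testing.

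In the order Oprl1, Oprd1, Penk, Oprm1, Oprk1, Pnoc and Pdyn, some neighbours did not differ beyond their spread. The ranges of Oprl1 (16.7 to 20.9 TPM) and Oprd1 (13.1 to 17.8 TPM) overlapped, although Oprl1 was the higher of the pair in 6 of 6 libraries. Penk (8.11 to 22.9 TPM) overlapped both, and it lay below Oprd1 in 3 of 6 libraries. Penk and Oprm1, Oprm1 and Oprk1, and Oprk1 and Pnoc had ranges that did not overlap, with means 4.72, 2.43 and 4.10 times apart. The ranges of Pnoc and Pdyn overlapped.

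**Figure D1:**
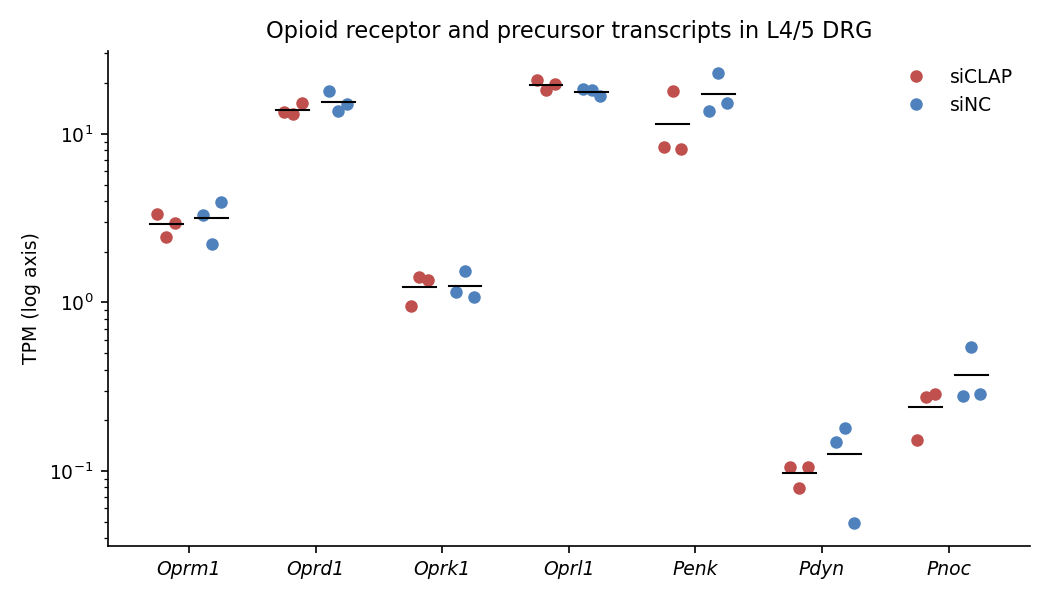
Deposited TPM (log axis) of the 4 opioid receptor and 3 precursor genes, with a point for each of the 3 siCLAP and 3 siNC libraries and a line at each group's mean. Oprl1, Oprd1 and Penk lie near 8 to 23 TPM, Oprm1 and Oprk1 lower, and Pnoc and Pdyn below 1 TPM in all 6 libraries.

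Levels of different genes depend on the length each was divided by. The lengths behind the deposited TPM, estimated from the ratio of count to TPM against 2247 genes with a single annotated transcript, were 4021 bases for Oprd1, 3138 for Oprl1, 2778 for Oprm1, 6307 for Oprk1 and 1449 for Penk. For Oprm1 this is well under the 8037 bases that its 31 annotated transcripts cover together, so its level depends on the length chosen. In GENCODE M21, on the same mm10 build, Oprm1 lies on chr10:6758506-7038198 (plus strand), Oprd1 on chr4:132110726-132144486 (minus), Oprk1 on chr1:5588466-5606131 (plus) and Oprl1 on chr2:181715016-181720985 (plus). Penk lies on chr4:4133531-4138819, Pdyn on chr2:129686565-129699844 and Pnoc on chr14:65400673-65425472, each on the minus strand. The library kit does not mark strand, and 233 exonic bases of Penk overlap the noncoding gene A830012C17Rik on the other strand. Oprm1 shares 96 exonic bases with Ipcef1, which had 27 to 64 counts per library.

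Start regions were printed for the 4 genes found in RefSeq's promoter table (GRCm38.p6), because the abundant pair, Oprd1 and Oprl1, differed widely in CG content there. Oprk1, Penk and Pnoc did not match. Each sequence holds the 250 bases before a transcription start, at chr4:132144487-132144736 (minus strand) for Oprd1, chr2:181714766-181715015 (plus) for Oprl1, chr10:6758343-6758592 (plus) for Oprm1 and chr2:129699939-129700188 (minus) for Pdyn. Capitals mark CG dinucleotides, the sites of DNA methylation.
Oprd1: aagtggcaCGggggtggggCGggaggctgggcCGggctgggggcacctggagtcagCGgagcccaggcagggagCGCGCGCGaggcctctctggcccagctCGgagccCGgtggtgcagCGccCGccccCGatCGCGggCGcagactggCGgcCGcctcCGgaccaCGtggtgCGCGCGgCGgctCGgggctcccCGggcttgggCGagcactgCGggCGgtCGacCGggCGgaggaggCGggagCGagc
Oprl1: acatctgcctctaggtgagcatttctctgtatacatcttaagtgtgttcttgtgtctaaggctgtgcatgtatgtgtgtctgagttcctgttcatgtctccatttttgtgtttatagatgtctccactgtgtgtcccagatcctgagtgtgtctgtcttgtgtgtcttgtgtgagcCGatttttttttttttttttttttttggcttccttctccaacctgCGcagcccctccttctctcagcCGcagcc
Oprm1: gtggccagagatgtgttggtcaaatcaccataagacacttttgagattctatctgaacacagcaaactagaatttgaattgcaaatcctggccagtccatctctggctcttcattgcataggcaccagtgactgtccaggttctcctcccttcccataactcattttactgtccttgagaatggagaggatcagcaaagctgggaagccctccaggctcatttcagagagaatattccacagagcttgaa
Pdyn: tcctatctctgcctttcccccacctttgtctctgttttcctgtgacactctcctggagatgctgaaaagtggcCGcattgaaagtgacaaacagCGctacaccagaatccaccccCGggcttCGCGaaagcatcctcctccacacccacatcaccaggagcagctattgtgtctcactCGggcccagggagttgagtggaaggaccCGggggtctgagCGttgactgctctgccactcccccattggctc
The Oprd1 window held 34 CG dinucleotides and 80.0% G and C, a count reached by 3.5% of the 32851 windows of the table. Oprl1, at a similar transcript level, held 3, Pdyn held 8 and Oprm1 held 0, against a median of 6. Where the table gives several starts, the window with most annotated transcripts starting within 100 bases was taken, the first listed if tied. For Pdyn that was 1 of 3 annotated transcripts. For Oprm1, 9 of its 31 annotated transcripts start within 100 bases of the start used, so the 0 holds for that start alone. The other Oprm1 windows, beginning at chr10:6788320 and chr10:6788326, held 4 CG each. The other Pdyn window held 4 CG, and the other Oprl1 windows held 1 and 2. The cyclic AMP response element half-site TGACG or its reverse complement CGTCA, which contains a CG, was in none of the 4 windows and in 17.8% of all. The TATA box sequence TATAAA, on either strand, was in 12.4% of all windows. Among the 4 it was found once, in Oprl1, as its reverse complement TTTATA, and whether it acts there was not tested.

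None of the 5 testable members differed between siCLAP and siNC past the threshold (Benjamini-Hochberg adjusted p under 0.05 in edgeR's quasi-likelihood test over all genes), where 0.293% of all tested genes did. At an unadjusted p under 0.05 there was 1 of 5, Oprl1, against 17.0% of all tested genes. The normalised levels of the groups were without overlap for 0 of the 5 members, against 21.5% of tested genes. DESeq2 also called 0 of the 5, giving Oprm1 and Oprk1 no adjusted p, where it called 3.19% of all genes. It found 0 of the 5 at an unadjusted p under 0.05, against 13.0% of all genes.

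Oprl1 had 20.9, 18.2 and 19.7 TPM in the siCLAP libraries, in replicate order here and throughout, against 18.3, 18.1 and 16.7 TPM in the siNC libraries. The siCLAP-1 and siCLAP-3 libraries lay above all siNC libraries, and siCLAP-2 lay within their range. The group means were 19.6 ± 1.35 TPM in siCLAP and 17.7 ± 0.895 TPM in siNC (SD, n = 3 each). The log2 fold change was 0.16 ± 0.07 (SE, edgeR adjusted p = 0.290), with a 95% interval from 0.0016 to 0.32. Over the alternatives run the adjusted p was 0.248 to 0.676, and the estimate stayed positive at 0.10 to 0.21.

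Oprd1 had 13.5, 13.1 and 15.1 TPM in the siCLAP libraries, against 17.8, 13.7 and 15.0 TPM in the siNC libraries. The single high value was siNC-1, and the other 5 libraries lay between 13.1 and 15.1 TPM. The means were 13.9 ± 1.07 TPM in siCLAP and 15.5 ± 2.14 TPM in siNC, with a log2 fold change of −0.14 ± 0.09 (edgeR adjusted p = 0.485, 95% interval −0.34 to 0.07). It was −0.02 without siNC-1, and −0.22 without siNC-2 (adjusted p = 0.226).

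Oprm1 had 3.35, 2.45 and 2.96 TPM in siCLAP and 3.31, 2.23 and 3.94 TPM in siNC, on 68.5 to 140.5 counts per library. Its lowest and highest values were both siNC libraries. The means of 2.92 ± 0.453 TPM in siCLAP and 3.16 ± 0.866 TPM in siNC gave a log2 fold change of −0.05 ± 0.20 (edgeR adjusted p = 0.924). Its 95% interval of −0.49 to 0.39 was wide, and the sign turned in 4 alternatives, for example to 0.11 without siNC-3.

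Oprk1 had 0.949, 1.42 and 1.35 TPM in siCLAP and 1.16, 1.54 and 1.07 TPM in siNC, on 55 to 173 counts per library. The ranges of the groups overlapped in large part, with siCLAP-1 the lowest library and siNC-2 the highest. Its log2 fold change was −0.06 ± 0.19 (edgeR adjusted p = 0.908, 95% interval −0.48 to 0.37). The sign turned to 0.12 without siCLAP-1 and to 0.15 without siNC-2.

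**Figure D2:**
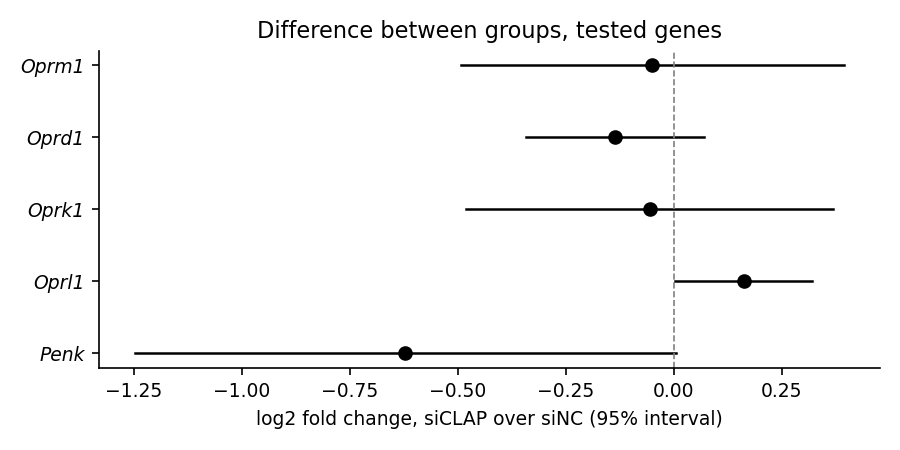
Log2 fold change of siCLAP over siNC for the 5 testable opioid genes, with points for edgeR's estimate and lines for its 95% interval, from 3 libraries a group. The Oprl1 interval starts just above 0 before any adjustment for multiple testing, and the intervals of Oprm1, Oprk1 and Penk are the wide ones.

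The receptors were also described by their shares, since the 4 receptor transcripts summed to 38.7, 35.2 and 39.2 TPM in the siCLAP libraries and 40.6, 35.5 and 36.7 TPM in the siNC libraries. Oprl1 held 54.0%, 51.7% and 50.4% of this sum in siCLAP, against 45.1%, 51.0% and 45.5% in siNC. Oprd1 held 34.9%, 37.3% and 38.6% in siCLAP, against 43.9%, 38.4% and 40.9% in siNC. In both cases only siNC-2 lay within the range of the siCLAP libraries. The ratio of Oprl1 to Oprd1 was 1.55, 1.39 and 1.30 in siCLAP and 1.03, 1.33 and 1.11 in siNC. Oprm1 held 6.96% to 8.66% of the sum in siCLAP and 6.27% to 10.7% in siNC, and Oprk1 2.45% to 4.03% in siCLAP and 2.85% to 4.34% in siNC.

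**Figure D3:**
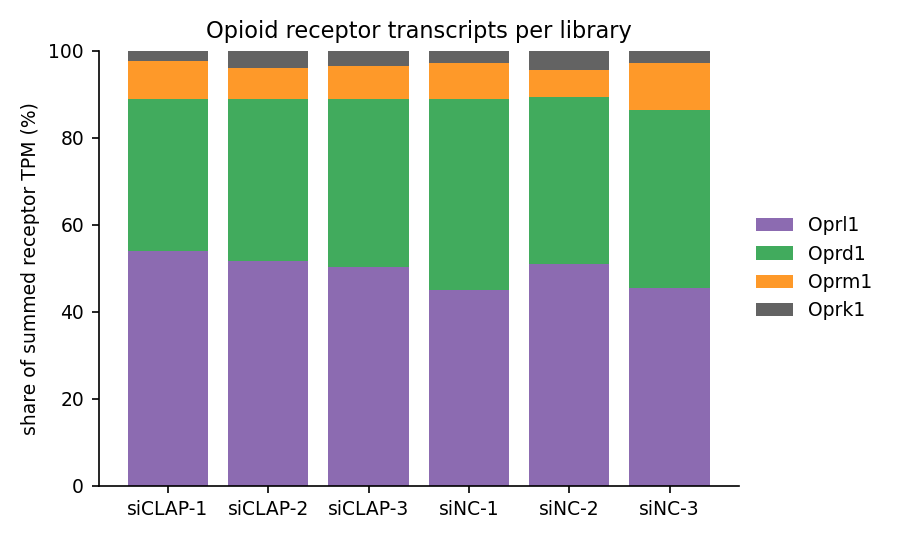
Share of each receptor in the summed TPM of the 4 opioid receptors (percent), with a stacked bar for each siCLAP and siNC library. Oprl1 and Oprd1 together hold most of every bar, and the Oprl1 part is smallest in siNC-1 and siNC-3.

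Markers of neuron classes were read in the same libraries, and only some of their sums lay apart between the groups. The summed level of 6 non-peptidergic nociceptor genes was 994 to 1061 TPM in siCLAP and 1232 to 1311 TPM in siNC. Of these, 4 (Scn11a, Plxnc1, Mrgprd and Gfra2) fell past the same threshold in edgeR, which 0.293% of all tested genes passed in either direction. With limma in place of edgeR, or in edgeR without siCLAP-1, 0 of all tested genes passed, so no marker gene did. The 4 C-fibre low-threshold mechanoreceptor genes summed to 171 to 187 TPM in siCLAP and 189 to 218 TPM in siNC, and 0 of them passed. The 6 myelinated mechanoreceptor and proprioceptor genes summed to 2492 to 2813 TPM in siCLAP and 2125 to 2537 TPM in siNC, so the groups overlapped. Of these 6, Pvalb rose past the threshold, and 4 estimates were positive and 2 negative. The 6 peptidergic nociceptor genes, of a class known to hold mu receptors, summed to 3984 to 4360 TPM in siCLAP and 3890 to 4035 TPM in siNC, and 0 of them passed. The part of these classes in the receptor values was not tested.

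Penk, which encodes the enkephalins, had the widest spread over the libraries of the 5 tested members. It had 8.36, 17.9 and 8.11 TPM in the siCLAP libraries, against 13.7, 22.9 and 15.2 TPM in the siNC libraries. The siCLAP-1 and siCLAP-3 libraries lay below all others, whereas siCLAP-2 lay above siNC-1 and siNC-3, so the groups overlapped. The means were 11.4 ± 5.56 TPM in siCLAP and 17.3 ± 4.92 TPM in siNC (SD, n = 3 each). The log2 fold change was −0.62 ± 0.28 (edgeR adjusted p = 0.297), with a 95% interval of −1.25 to 0.0042. With a library left out it ranged from −1.07 (adjusted p = 0.0805) without siCLAP-2 to −0.33 (adjusted p = 0.564) without siNC-2, and the adjusted p over all alternatives from 0.0205 to 0.642. The lowest came from a fit chosen after seeing the data, and the fit with no filter on low values also passed (adjusted p = 0.0381). Those fits called 733 of 25930 and 835 of 30347 tested genes, against 56 of 19141 in the main fit.

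The genes nearest to Penk in profile were Qrfpr, a neuropeptide receptor, and Ngef, a guanine nucleotide exchange factor. Likeness was the root mean square difference of centred log2(CPM + 0.5) profiles over the 6 libraries, where CPM is the count scaled for depth. It was 0.190 for Qrfpr and 0.213 for Ngef, against a spread of 0.508 for Penk itself. Qrfpr had 0.257, 1.05 and 0.147 TPM in siCLAP and 0.925, 2.12 and 1.50 TPM in siNC, low in siCLAP-1 and siCLAP-3 as Penk was. Its lowest libraries held 3 and 7 counts. Ngef had 3.18, 4.16 and 2.71 TPM in siCLAP and 4.49, 6.50 and 4.43 TPM in siNC. Their log2 fold changes were −1.76 ± 0.53 and −0.63 ± 0.19 (edgeR adjusted p = 0.142 for each).

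Of the caudal homeobox genes, which mark position along the spine, Hoxd10 and Hoxd11 were low in the same 2 siCLAP libraries. Hoxd10 had 1.78, 7.94 and 0.750 TPM in siCLAP and 8.62, 15.6 and 14.8 TPM in siNC. Hoxd11 had 0.703, 3.53 and 0.301 TPM in siCLAP and 4.63, 8.87 and 8.12 TPM in siNC. Within each group, Penk, Hoxd10 and Hoxd11 were all highest in replicate 2. The 6 caudal Hox genes together summed to 54.7 to 71.9 TPM in siCLAP and 68.9 to 83.2 TPM in siNC, and 0 of the 5 tested passed. Of those 5, 4 estimates were negative and 1 positive, with a median log2 fold change of −1.52 (smallest edgeR adjusted p = 0.0856). The groups did not overlap for 3 of the 5, against 21.5% of all tested genes. Hoxa10 went the other way, with 35.8, 35.6 and 37.2 TPM in siCLAP and 32.0, 34.2 and 33.4 TPM in siNC, at 0.14 ± 0.06 (edgeR adjusted p = 0.247). The part of these genes in the Penk values was not tested.

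**Figure D4:**
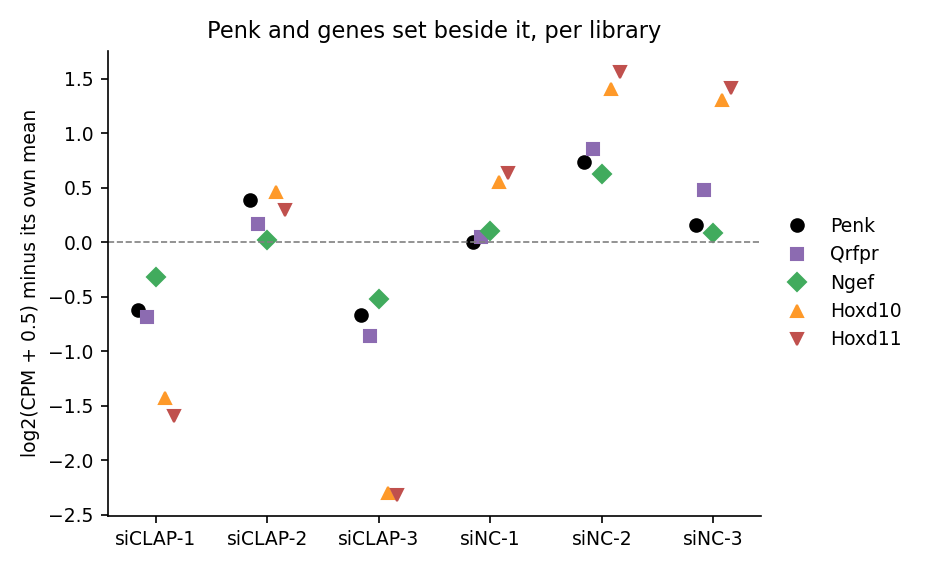
Log2(CPM + 0.5) minus each gene's own mean over the 6 libraries, for Penk, its nearest genes Qrfpr and Ngef, and the caudal genes Hoxd10 and Hoxd11, in the siCLAP and siNC libraries. All 5 genes are below their mean in siCLAP-1 and siCLAP-3 and above it in siCLAP-2 and siNC-2.

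Penk is also abundant in spinal cord neurons and is made by some fibroblasts and T cells, so their markers were read in the same libraries. Of 8 spinal cord neuron genes, Slc32a1 and Lhx5 had 0 counts in all libraries, Gad1 had 1 count in all and Slc6a5 at most 4 counts in a library. The list summed to 147 to 161 TPM in siCLAP and 161 to 172 TPM in siNC, nearly all of it Slc17a6, which sensory neurons use. The 6 T cell genes summed to 0.409 to 1.84 TPM in siCLAP and 0.794 to 1.44 TPM in siNC. The 6 fibroblast genes summed to 354 to 569 TPM in siCLAP and 331 to 495 TPM in siNC, and both sums were highest among siCLAP libraries in siCLAP-2 and lowest among siNC libraries in siNC-2, where Penk was highest. The 6 leptomeningeal genes, of the membranes around cord and roots, summed to 6.53 to 17.2 TPM in siCLAP and 23.8 to 104 TPM in siNC, also lowest among siNC libraries in siNC-2. The part of fibroblasts and T cells in the Penk values was not tested.

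Pdyn and Pnoc were near the limit of detection. Pdyn had 4, 2 and 3 counts in the siCLAP libraries and 5, 8 and 1 counts in the siNC libraries, so 3 of 6 were at or under a floor of 3 counts. Summed, 9 counts in siCLAP and 14 in siNC gave a ratio of 0.699 after scaling, with a 95% interval of 0.267 to 1.73 that covers counting error only. Pnoc had 5, 6 and 7 counts in siCLAP and 8, 21 and 5 counts in siNC, with a ratio of 0.576 (0.306 to 1.05). The single high library was siNC-2, also the deepest. Scaled for depth it was still the highest, at 0.456 CPM against 0.225 and 0.233 CPM in siNC-1 and siNC-3 and at most 0.238 CPM in siCLAP. With the filter lowered to a mean of 0.1 TPM, 0 of the 7 genes passed edgeR's test, against 0.521% of the genes then tested, and 2 (Oprl1 and Penk) had an unadjusted p under 0.05, as did 14.3% of those genes. Estimates were −0.46 ± 0.65 for Pdyn and −0.72 ± 0.47 for Pnoc (adjusted p = 0.796 and 0.529). Penk held 95.4% to 98.0% of the summed precursor TPM in siCLAP and 96.9% to 97.8% in siNC.

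The receptors' nearest profiles were read by the same rule. For Oprl1 they were Cd164l2 and Plekhd1 (0.0172 and 0.0202, against its own spread of 0.108), and for Oprd1 Itpr3, an inositol trisphosphate receptor, and Nek8, a kinase (0.0227 and 0.0279, against 0.135). Oprm1 was nearest to the entries DQ568341 and AK080470 (0.0576 and 0.0699, against 0.235), and Oprk1 to Cd300lg and SNORD113 (0.0463 and 0.0643, against 0.211). Where a gene's own spread is small, many flat genes lie close to it.

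The other genes of the opioid system were taken as 9 lists of 73 genes, of which 70 were tested. None rose or fell in edgeR's test. At an unadjusted p under 0.05, 4 of 70 were higher and 12 of 70 lower in siCLAP, as were 8.22% and 8.75% of all tested genes. DESeq2 called 4 (Gnao1, Adcy5, Adcy6 and Adrbk2), against 3.19% of all genes. Pomc, the precursor of beta-endorphin, was below the filter at 0.628, 0.818 and 0.910 TPM in siCLAP and 0.400, 1.16 and 0.811 TPM in siNC. Ogfr, the opioid growth factor receptor, and Ackr3, a receptor that takes up opioid peptides, stood at 0.06 ± 0.08 and −0.07 ± 0.16. Without siCLAP-2 the sign turned for both, to −0.0075 for Ogfr and 0.03 for Ackr3.

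Of 10 precursor processing enzymes, 0 passed, with a median log2 fold change of 0.0037 against −0.0018 over all tested genes. The proprotein convertases Pcsk1 and Pcsk2, which cut the opioid precursors, stood at −0.0067 ± 0.06 and −0.0022 ± 0.05. Pcsk6, a further convertase, and Pcsk1n, which encodes an inhibitor of Pcsk1, stood at −0.38 ± 0.11 and 0.17 ± 0.06 (adjusted p = 0.122 and 0.187), and each passed in 1 of 16 alternatives. Of 9 peptide degrading enzymes 0 passed (median −0.0011). Mme, the enkephalin-cutting neprilysin, was at 0.09 ± 0.08, and the aminopeptidases Anpep and Enpep at −0.50 ± 0.27 and 0.21 ± 0.12.

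Downstream of the receptors, 0 of 13 inhibitory G protein genes passed (median 0.02). Gnao1, the alpha subunit of Go and the main one in neurons, had 152, 145 and 178 TPM in siCLAP, against 207, 197 and 202 TPM in siNC. All siCLAP libraries lay below all siNC libraries, and 21.5% of all tested genes had groups without overlap in either direction. The log2 fold change of Gnao1 was −0.33 ± 0.07 and missed the threshold (edgeR adjusted p = 0.0591). Over the alternatives its adjusted p was 6.32e-05 to 0.310, and it passed in 6 of 16, among them without siCLAP-3 (0.00544). Gnai1, an inhibitory alpha subunit, stood at 0.14 ± 0.04 (adjusted p = 0.140).

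All 8 adenylyl cyclases of the list, enzymes that make cyclic AMP, had negative estimates (−0.29 to −0.07, median −0.18). None passed, the smallest adjusted p being 0.1103, and 5 of 8 were lower at an unadjusted p under 0.05, as were 8.75% of all tested genes. Adcy5 had 33.4, 32.3 and 38.1 TPM in siCLAP and 41.7, 39.0 and 41.5 TPM in siNC, and Adcy6 had 14.8, 16.2 and 15.7 TPM in siCLAP and 17.4, 18.4 and 20.9 TPM in siNC. In both the groups did not overlap, as was so for 21.5% of all tested genes by normalised CPM. Their log2 fold changes were −0.22 ± 0.06 and −0.26 ± 0.07 (edgeR adjusted p = 0.120 and 0.1103), and both passed in DESeq2 (0.0322 and 0.0354). Adcy5 passed in 4 of 16 alternatives, among them without siCLAP-3 (adjusted p = 0.0289), and Adcy6 in 3 of 16.

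Of the 11 RGS proteins, which speed the shut-off of G proteins, 0 passed, 8 were negative and the median was −0.14. Rgs7 and Rgs8 stood at −0.14 ± 0.04 and −0.17 ± 0.06 (adjusted p = 0.159 and 0.189). Of 7 receptor kinases and arrestins 0 passed (median −0.08). Adrbk2 and Adrbk1, the older symbols of the receptor kinases Grk3 and Grk2, stood at −0.32 ± 0.08 and −0.10 ± 0.05 (adjusted p = 0.0950 and 0.316). Adrbk2 passed in DESeq2 (0.0245) and with no filter (0.0125). Arrb2, the arrestin that binds active mu receptors, stood at 0.02 ± 0.06. Of the 4 G protein-gated potassium channels, 2 were tested. These were Kcnj3 and Kcnj9 at 0.09 ± 0.06 and 0.14 ± 0.19 (adjusted p = 0.496 and 0.739), and Kcnj9 was at −0.01 without siNC-3. The trafficking partners gave 0 of 8 (median 0.0030), with Ubxn1 at 0.14 ± 0.06 and Flna, which encodes the mu receptor's cytoskeletal anchor filamin A, at −0.16 ± 0.07 (adjusted p = 0.240 and 0.283).

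**Figure D5:**
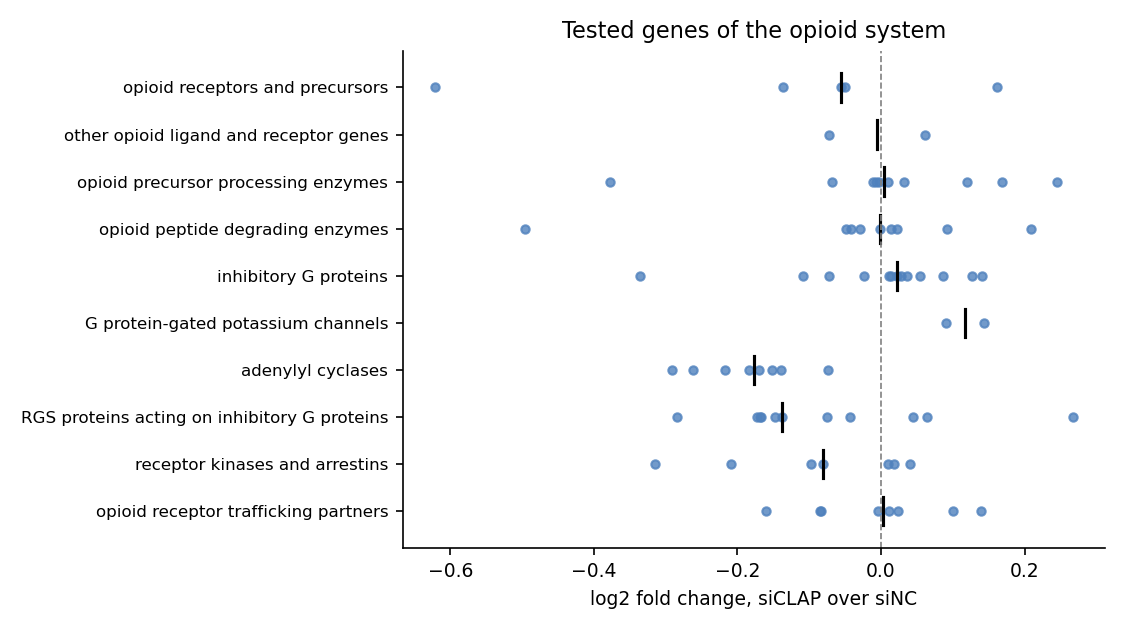
Log2 fold change of siCLAP over siNC for each tested gene of the opioid receptor and precursor group and of 9 further lists, with a point for each gene and a black line at each list's median. All adenylyl cyclase points lie below 0, and no gene of any list passed the test over all genes.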

How the data were processed

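RNA from whole ganglia was turned into libraries, per the labels' protocols, using a NEBNext Ultra RNA kit. The submitters' processing notes name FastQC 0.11.8, HISAT2 2.1.0, featureCounts 1.6.2 and mm10; annotation, strand setting and treatment of shared reads were not given in the sources used here. Each deposited file holds TPM, scaled by the authors to length and library total, and expected counts that need not be whole (64.4% to 68.3% were, within 1e-06).

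Expected counts were rounded and tested in edgeR 4.0.16 (R 4.3.3; quasi-likelihood) over all 19141 genes with a mean of at least 1 TPM, with TMM scaling, no covariate and Benjamini-Hochberg adjustment, passing at adjusted p under 0.05. Standard errors were derived from the F statistic. CPM uses TMM-scaled totals. With 3 libraries against 3 an exact permutation test cannot go below 0.1. The script was tested on simulated data. A floor of 3 counts corresponds to 0.0652 to 0.140 CPM, and floors and count intervals cover counting error only. Libraries of a group differed by more than counting noise (mean chi-square per gene 3.89 to 8.54).

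Alternatives were another scaling, DESeq2 1.42.0, limma 3.58.1 on log2(TPM + 0.5) or + 0.1, other filters, a block for the replicate number, and leaving out single libraries. Members and lists were chosen with earlier results of these data known. Named were all 7 members, the 2 genes nearest in profile to each tested member, and the 2 genes of each list with the smallest p. Marker genes were named where their list stands beside a member. Pcsk1, Pcsk2, Mme, Arrb2 and Pomc were named beyond that rule, after their values were seen.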

Additional observations from a re-analysis of the deposited data

How the results depend on the processing

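Over the alternatives, 0 of the testable members were called except 1 (Penk), in 2 fits. With no filter on low values its log2 fold change was −0.63 (edgeR adjusted p = 0.0381), where 835 of 30347 tested genes were called. With the replicate block and a filter at a mean of 0.1 TPM, chosen after seeing the data, it was −0.61 (edgeR adjusted p = 0.0205). That fit called 733 of 25930 tested genes, against 56 of 19141 in the main fit. With any library left out 0 members were called, with log2 fold changes from −0.26 to 0.11 for Oprm1, −0.22 to −0.02 for Oprd1, −0.16 to 0.15 for Oprk1, 0.10 to 0.21 for Oprl1 and −1.07 to −0.33 for Penk. Oprm1 was at 0.06 without siCLAP-2, 0.0023 without siNC-1, 0.11 without siNC-3 and 0.22 without both siNC-3 and siCLAP-2, a choice made after seeing the data; Oprk1 was at 0.12 without siCLAP-1 and 0.15 without siNC-2. The cause was not tested. With a library left out Ackr3 ranged from −0.229 to 0.0314 (above 0 without siCLAP-2 and, at 0.0253, without siNC-1), Ogfr from −0.0075 (without siCLAP-2) to 0.137, and Kcnj9 from −0.0111 (without siNC-3) to 0.307. Ackr3 was at 0.0806 without both siNC-3 and siCLAP-2.

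The list genes called were 0 in the main test, 4 with DESeq2, 1 at a mean of 0.1 TPM and 5 with no filter. They were 1 with the replicate block, 4 with the block and the lower filter, and 0 to 2 with a library left out. The genes tested were 25930 at a mean of 0.1 TPM, 30347 with no filter and 19141 otherwise. Over all genes, 56 were called, 611 with DESeq2, 0 with limma at either pseudocount (3028 and 3017 at an unadjusted p under 0.05), 135 at a mean of 0.1 TPM, 835 with no filter, 203 with the replicate block, 733 with the block and the lower filter, 13 without both siNC-3 and siCLAP-2, and 0 (without siCLAP-1, 1960 at an unadjusted p under 0.05) to 340 (without siCLAP-3) with a library left out, among them 4 without siNC-3 and 157 without siNC-2.

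Shares by CPM, which is not scaled to length, were 43.7% for Oprl1, 44.1% for Oprd1, 6.29% for Oprm1, 5.91% for Oprk1, 95.5% for Penk, 3.12% for Pnoc and 1.43% for Pdyn, against 49.6%, 39.0%, 8.05%, 3.34%, 97.0%, 2.13% and 0.839% by TPM. Same-numbered libraries deviated together with correlations of 0.13, 0.03 and −0.06, so the numbers were not taken to pair them, and siCLAP-2 correlated best with siNC-3 (0.157). Under the replicate block Penk stood at −0.62 (edgeR adjusted p = 0.0529). Its CPM in siCLAP over that in siNC of the same number was 0.626, 0.776 and 0.541, so below 1 for each number. The labels do not say whether the numbers pair the libraries. Pdyn and Pnoc rest on 1 to 21 counts a library.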
